A study of Mus musculus with 4 samples.

Results

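The EMT transcription factors are the genes Twist1, Twist2, Snai1, Snai2, Zeb1, Zeb2, Foxc2 and Prrx1, whose proteins drive the epithelial-mesenchymal transition (EMT). They were taken from the deposited count table by gene symbol, and all 8 were found among its 23481 genes. All libraries were made from the mouse breast cancer line 4T1-T, in which Asns, the gene of asparagine synthetase, had been silenced. There were 2 libraries from such cells grown in DMEM without asparagine and 2 from such cells grown in DMEM with asparagine, named A and B in each group. The silencing was shared by both groups, no unsilenced library was analysed here, and the labels do not describe the silencing construct or the number of clones. Values given in pairs are those of library A and then library B. Nothing in the labels says that A and B were separate cultures, so every p-value below measures the spread between these libraries, which may be technical.

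In EMT, epithelial cells lose their junctions and polarity and take on the migratory features of mesenchymal cells. Snail family factors (Snai1, or Snail, and Snai2, or Slug) and the ZEB factors are zinc-finger repressors that bind E-box sequences in the promoters of epithelial genes such as Cdh1, the gene of E-cadherin. The Twist proteins are basic helix-loop-helix factors that bind DNA as dimers with E proteins, Foxc2 is a forkhead factor and Prrx1 a paired-related homeobox factor, and both promote mesenchymal features. In carcinoma cells these factors are known for their links to invasion, stemness and spread.

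Reads assigned to genes numbered 17977552 and 22581543 without asparagine, against 23867011 and 30260582 with asparagine. Library A without asparagine stood apart from the others, with 56.6% of its reads outside annotated features against 46.3% to 49.3% in the other libraries, and 3.53% of its gene counts in the ribosomal RNA precursor Rn45s against 0.884% to 1.66%. Asns itself had 75.0 and 89.2 CPM (reads of a gene scaled to the TMM-adjusted library total) without asparagine against 103 and 101 CPM with it, and did not pass the test (log2 fold change -0.31, edgeR adjusted p = 0.235). Its log2 fold change was -0.19 and -0.45 without library A or B without asparagine. Without library A or B with asparagine it was -0.30 and -0.33. Among all 12843 genes tested 237, or 1.85%, passed edgeR's quasi-likelihood test at an adjusted p threshold of 0.05, with 0.771% higher and 1.07% lower without asparagine. Genes that passed are described below as called.

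Of the 8 EMT factors, 6 had enough reads to be tested, and Snai2 and Twist2 had 0 reads in every library. None of the 6 was called in edgeR's test, and Foxc2 and Zeb2 were the 2 with an unadjusted p under 0.05, which 18.1% of all genes tested had. The DESeq2 test called 1 of the 6, Foxc2, against 464 of all 12843 genes tested. Foxc2, Zeb2 and, on few reads, Prrx1 had lower levels without asparagine, Snai1 a higher one, and Twist1 and Zeb1 had overlapping groups. The 95% intervals of Snai1 and Prrx1 spanned 0. The median log2 fold change over the 6, without over with asparagine, was -0.23, beside 0.01 over all genes tested. For 3 of the 6 both libraries without asparagine lay below both with it, and for 1 both lay above. The same held for 26.4% (below) and 26.1% (above) of all genes tested, so such a separation was common in these libraries.

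**Figure D1:**
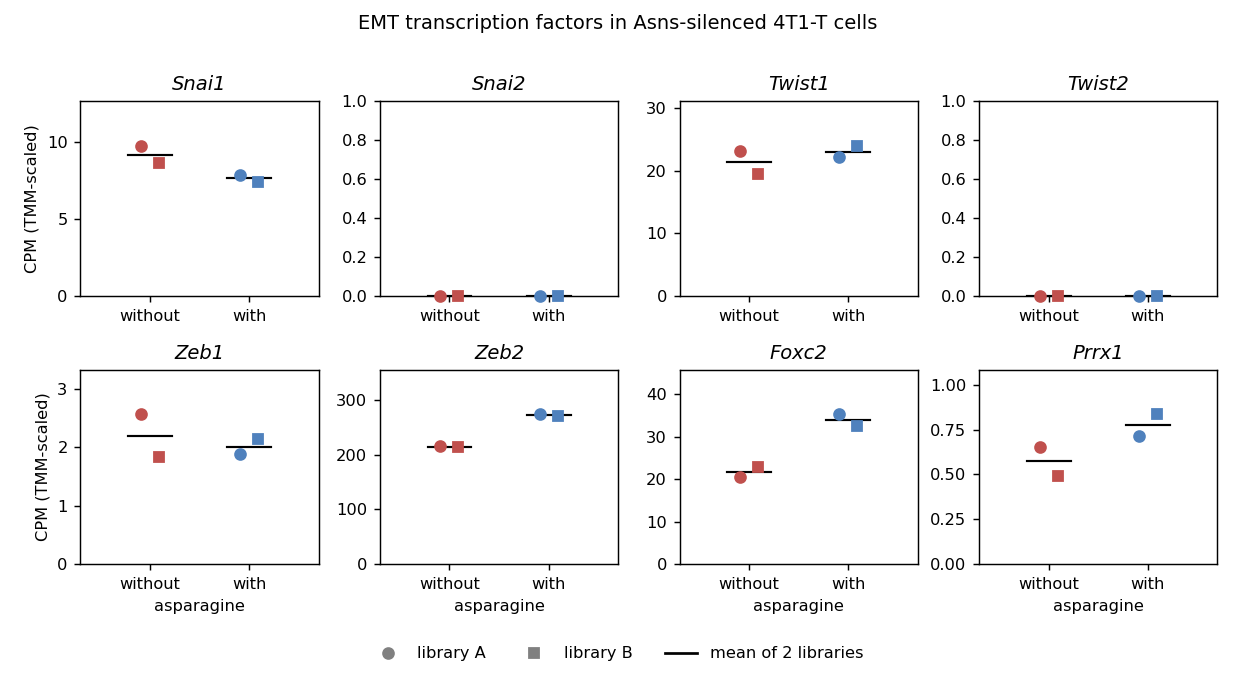
CPM of each EMT transcription factor (vertical axes, from 0, with a scale of their own in each panel) in libraries A (circles) and B (squares) of cells grown without and with asparagine, with the mean of 2 libraries as a line. Foxc2, Zeb2 and, on few reads, Prrx1 lie lower without asparagine, Snai1 lies slightly higher, and Snai2 and Twist2 lie at 0 throughout.

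Foxc2 showed the largest difference relative to its error among the 6. It had 20.5 and 22.8 CPM without asparagine, against 35.3 and 32.6 CPM with it. Both libraries without asparagine lay below both with it, and the gap between the groups was several times the difference within each. The means were 21.7 ± 1.64 CPM without and 33.9 ± 1.89 CPM with asparagine (SD, n = 2 each). On the log2 scale the difference was -0.65 ± 0.12 (SE, 95% interval -0.93 to -0.36), or 1.56-fold higher with asparagine. The edgeR adjusted p was 0.0560, just outside the threshold. The DESeq2 test (adjusted p = 0.0129) and edgeR without a low-count filter (4.756e-04) or with the library letter as a block (0.00724) called it lower without asparagine. Over all genes these settings called 464, 1334 and 816, against 237 in the main test. Foxc2 was not called by limma-voom (0.0571). Nor was it called by edgeR with DESeq2 size factors (0.0586), upper quartile scaling (0.0676) or a filter of 5 CPM in 2 libraries (0.0578). Leaving out library A or B without asparagine gave log2 fold changes of -0.57 and -0.73. Leaving out library A or B with asparagine gave -0.59 and -0.71.

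Foxc2 is an intronless gene on chromosome 8, from 121116171 to 121118895 in GRCm38, and in GENCODE M21 its exon overlaps no other gene. Its transcript shares an identical run of up to 53 bases with its paralog Foxc1, so a part of the reads could be interchangeable between them. Foxc1 had 68.5 and 51.7 CPM without and 42.8 and 43.3 CPM with asparagine, a log2 fold change of 0.48 ± 0.15 (SE) in the other direction (edgeR adjusted p = 0.171).

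Of the ZEB pair, Zeb2 carried nearly all reads. It had 216 and 214 CPM without asparagine against 273 and 270 CPM with it. The libraries of each group were within a few CPM of each other and the groups did not overlap. The means were 215 ± 1.73 CPM without and 272 ± 2.46 CPM with asparagine (SD, n = 2 each), and the log2 fold change was -0.34 ± 0.10 (SE, 95% interval -0.57 to -0.11), or 1.26-fold higher with asparagine. With an adjusted p of 0.152 it was not called by edgeR, nor by DESeq2 (0.176). The log2 fold change was -0.35 and -0.33 when library A or B without asparagine was left out. It was -0.33 and -0.35 when library A or B with asparagine was left out. Once a library is left out, the spread comes from the other group alone. That spread was wider between the libraries without asparagine (chi-square per degree of freedom 34.8 over genes with reads) than between those with it (3.89).

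Zeb1 was present at a low level, with 47 and 41 reads without asparagine against 45 and 64 reads with it. In CPM these were 2.56 and 1.83 against 1.89 and 2.14, so the groups overlapped. The log2 fold change was 0.11 ± 0.27 (SE, edgeR adjusted p = 0.855), its 95% interval ran from -0.54 to 0.76, and it turned to -0.14 (adjusted p = 0.839) without library A without asparagine. Zeb2 lies on chromosome 2 from 44983632 to 45117395 and Zeb1 on chromosome 18 from 5591860 to 5775467. The antisense gene Zeb2os covers 3.27% of the exon bases of Zeb2, and since the use of strand in counting is not stated, its reads cannot be told apart there. An opposite-strand transcript covers 1.93% of the exon bases of Zeb1. The longest identical run shared by transcripts of the ZEB genes was 35 bases.

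Of the Snail family, Snai1 was detected in every library and Snai2 in none. Snai1 had 9.76 and 8.63 CPM without asparagine against 7.90 and 7.44 CPM with it. The libraries without asparagine were both higher, but the gap between the groups was smaller than the difference within the group without asparagine. The means were 9.19 ± 0.795 CPM without and 7.67 ± 0.327 CPM with asparagine (SD, n = 2 each). On the log2 scale the difference was 0.26 ± 0.15 (SE, 95% interval -0.11 to 0.63, edgeR adjusted p = 0.407). The value moved between 0.17 without library A without asparagine and 0.35 without library B of that group (adjusted p = 0.587 and 0.110).

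Snai2, whose product shares the zinc-finger DNA-binding domain of Snail, had 0 reads in all 4 libraries. A count of 0 allows 3 reads, or up to 0.164 and 0.134 CPM without asparagine against 0.126 and 0.100 CPM with it, counting error only. Another Snail family gene, Snai3, named after its values were seen, had 5 and 10 reads without asparagine against 1 and 4 reads with it, too few to be tested. Snai1 lies on chromosome 2 from 167538195 to 167542814 and Snai2 on chromosome 16 from 14705852 to 14709385. Their transcripts share no identical run over 23 bases, so longer reads could be told apart.

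The Twist pair showed the same division. Twist1 had 23.2 and 19.5 CPM without asparagine, against 22.2 and 23.9 CPM with it. Library A without asparagine lay within the range of the other group, so the groups overlapped. The means were 21.4 ± 2.60 CPM without and 23.1 ± 1.19 CPM with asparagine (SD, n = 2 each), with a log2 fold change of -0.11 ± 0.13 (SE, edgeR adjusted p = 0.682). Its 95% interval, from -0.43 to 0.21, spans a range of 0.742-fold to 1.15-fold, so a change within that range could not be resolved here. Leaving out library A without asparagine gave -0.24 (adjusted p = 0.184), and leaving out library B of that group gave 0.0034 (adjusted p = 0.986).

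Twist2 had 0 reads in all 4 libraries, with the same upper limits as Snai2. An antisense gene covers 46.5% of the exon bases of Twist2, and how reads there were counted cannot be told without the strand setting. Twist1 lies on chromosome 12 from 33957671 to 33959829 and Twist2 on chromosome 1 from 91801461 to 91848028. The longest run their transcripts share was 23 bases. Prrx1, on chromosome 1 from 163245119 to 163313710, was near the limit of detection, with 12 and 11 reads without asparagine against 17 and 25 reads with it. In CPM these were 0.654 and 0.492 against 0.715 and 0.834, both lower without asparagine. The log2 fold change was -0.45 ± 0.39 (SE, 95% interval -1.36 to 0.46, edgeR adjusted p = 0.562), and it was -0.25 without library B without asparagine (adjusted p = 0.759). Its paralog Prrx2 had 1 and 0 reads without asparagine against 3 and 0 reads with it.

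**Figure D2:**
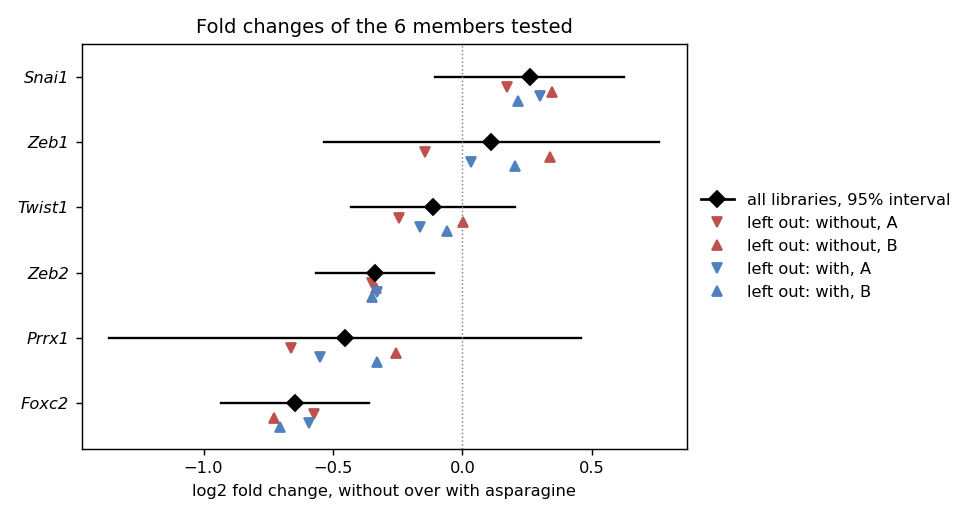
Log2 fold change, without over with asparagine (horizontal axis), of the 6 EMT factors tested, with all libraries and its 95% interval (black) and with a library left out (triangles, coloured by the group of the library left out). Whichever library is left out, the values of Foxc2, Zeb2 and Prrx1 stay below 0 and those of Snai1 above 0. Those of Twist1 and Zeb1 fall on both sides of 0.

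Levels were compared between the factors per kilobase of length. Per kilobase of merged exons, Twist1 had 14.3 and 12.0 CPM per kb without asparagine against 13.7 and 14.7 with it, and Zeb2 had 10.8 and 10.7 against 13.7 and 13.5. Foxc2 followed with 7.52 and 8.37 CPM per kb without against 12.9 and 12.0 with asparagine, and then Snai1 with 6.02 and 5.33 against 4.87 and 4.59. These 4 did not overlap with each other in the libraries without asparagine, where the order was Twist1, Zeb2, Foxc2 and Snai1. In the libraries with asparagine Twist1 and Zeb2 did overlap, so their order there is not resolved. Zeb1, with 0.250 and 0.179 CPM per kb without against 0.184 and 0.208 with asparagine, and Prrx1, with 0.0591 and 0.0445 against 0.0646 and 0.0754, lay far below.

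The place of Zeb2 depends on the length used. Its merged exons in GENCODE M21 span 19942 bases, while its longest coding transcript has 9124. Per kilobase of that transcript, Zeb2 had 23.7 and 23.4 CPM without asparagine and 30.0 and 29.6 CPM with it, above Twist1 in every library. Zeb2 exceeded Zeb1 per kilobase of merged exons by 43.4-fold and 60.0-fold without asparagine and by 74.4-fold and 65.1-fold with it. The ratio of Foxc2 to Snai1 was 1.25 and 1.57 without against 2.65 and 2.61 with asparagine. Foxc2 lay lower and Snai1 higher in both libraries without asparagine, so this ratio could not overlap between the groups. It adds nothing beyond the values of each gene.

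**Figure D3:**
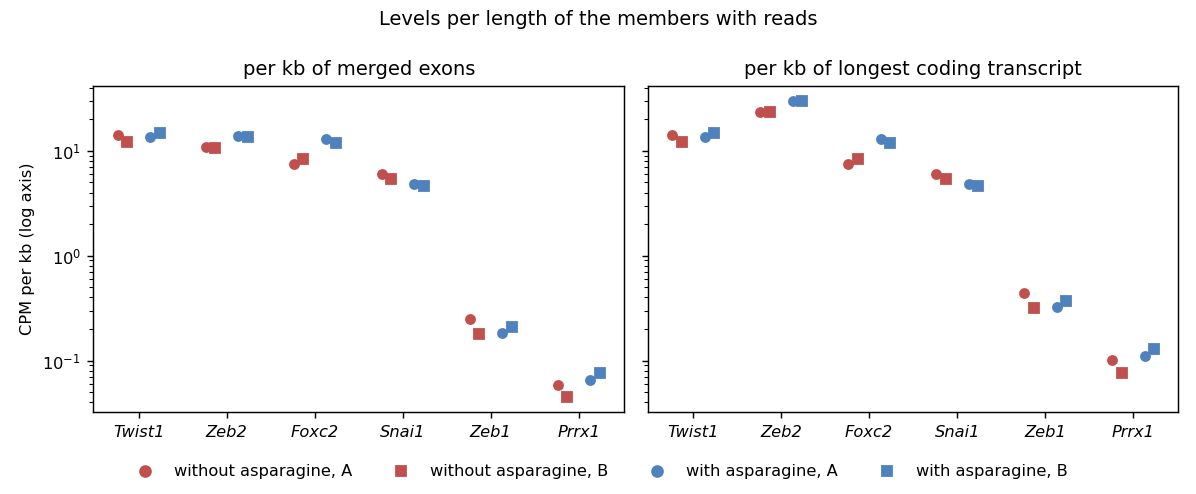
CPM per kilobase (logarithmic axis) of the 6 EMT factors with reads, in the 4 libraries, with merged exon length on the left and the longest coding transcript on the right. Twist1, Zeb2, Foxc2 and Snai1 lie between 4.59 and 30.0 CPM per kb on either scale, and Zeb1 and Prrx1 lie below 0.45.

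Genes with the pattern most like that of each factor were sought over the 4 libraries, by the root mean square difference of centred log2 CPM. For Foxc2 they were Fhod3 (difference 0.021), with 3.92 and 4.25 CPM without against 6.81 and 6.34 CPM with asparagine, and Hhip (0.028), with 54.7 and 63.1 against 98.0 and 87.0 CPM. For Zeb2 they were Acsl3 (0.0088) and Rere (0.011). Those of Snai1 were Elmo3 (0.0085) and Lmo7 (0.011), those of Twist1 were Frmd4a (0.0083) and Chaf1b (0.016), those of Zeb1 Bloc1s4 and Tkt, and those of Prrx1 Tnfsf9 and Mthfs. With 4 libraries many genes share any given pattern, so these names describe the libraries only.

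Among other transcription factors linked to EMT, 0 of 18 tested were called in edgeR's test, with a median log2 fold change of -0.02. DESeq2 called 1 of the 18, against 464 of all 12843 genes tested. In edgeR's test 6 of the 18 had an unadjusted p under 0.05, against 18.1% of all genes. The smallest p was that of Tcf4, which encodes an E protein, a dimer partner of Twist. Tcf4 had 204 and 205 CPM without asparagine against 283 and 272 CPM with it, without overlap (log2 fold change -0.44 ± 0.10, SE, edgeR adjusted p = 0.0882). It was called lower by DESeq2 (adjusted p = 0.0392). Its log2 fold change was -0.44 and -0.45 without library A or B without asparagine. Without library A or B with asparagine it was -0.41 and -0.47. Among the other E proteins, the log2 fold change was -0.28 for Tcf12 (adjusted p = 0.222) and 0.075 for Tcf3 (adjusted p = 0.742).

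Of 31 dimer partners and corepressors tested, 2 were called, both higher without asparagine, against 0.771% of all genes. The list showed no common direction, with 16 log2 fold changes above 0, 15 below and a median of 0.01. Id3, an Id protein that binds E proteins and keeps them from DNA, had 38.2 and 33.8 CPM without against 19.5 and 23.0 CPM with asparagine (a log2 fold change of 0.76 at adjusted p = 0.0470). Id1 and Id2 had log2 fold changes of 0.65 and 0.55 and were not called (adjusted p = 0.161 and 0.184). Ajuba, a LIM-domain scaffold that serves Snail as a corepressor, had 81.1 and 91.6 CPM without against 53.2 and 53.2 CPM with asparagine (a log2 fold change of 0.70 at adjusted p = 0.0341). Both calls were lost without library A with asparagine (adjusted p = 0.554 for Id3 and 0.454 for Ajuba) and without library B with asparagine (0.215 and 0.459), and that of Id3 also with a filter of 5 CPM in 2 libraries (0.0512). The CtBP corepressors of ZEB proteins, Ctbp1 and Ctbp2, had log2 fold changes of 0.12 and 0.05 (adjusted p = 0.562 and 0.836).

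The EMT factors are also controlled through protein turnover, which RNA does not measure. Of 30 tested genes of that machinery, 0 were called in edgeR's test, and 20 had values below 0, against 48.6% of all genes. DESeq2 called 1 of the 30, against 464 of all 12843 genes tested. In edgeR's test 3 of the 30 had an unadjusted p under 0.05, against 18.1% of all genes. The smallest p was that of Ctdsp2, a small phosphatase gene, with 62.8 and 97.1 CPM without against 131 and 133 CPM with asparagine (log2 fold change -0.72 ± 0.19, SE, adjusted p = 0.136). It was called lower by DESeq2 (adjusted p = 0.00880). Its log2 fold change was -0.45 and -1.08 without library A or B without asparagine. Without library A or B with asparagine it was -0.74 and -0.71. Fbxl14, a ubiquitin ligase subunit that targets Snail, and Gsk3b, the kinase that marks it for degradation, had log2 fold changes of -0.03 and -0.11 (adjusted p = 0.882 and 0.639).

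Of 30 tested epithelial genes that the EMT factors repress, 6 were called, all higher without asparagine, against 0.771% of all genes. This list, like the other gene lists here, was chosen with earlier results of these data known. The shares called in the lists are therefore not independent evidence. Of the 30, 23 had a fold change above 0 and 7 below, against 6598 above 0 of all 12843 genes tested. Of the 30, 24 were not called. The median log2 fold change was 0.50, beside 0.01 over all genes. Mal2, a gene of apical transport, had 4.47 and 4.43 CPM without against 1.56 and 1.60 CPM with asparagine (2.81-fold, adjusted p = 0.0262), and the desmosomal cadherin gene Dsg2 had 61.3 and 59.3 against 26.0 and 26.8 CPM (2.28-fold, adjusted p = 0.00678). Other called genes, named after their values were seen, were Dsp, a desmosomal plaque gene, Cgn, which encodes the tight junction protein cingulin, and the adhesion gene Epcam (log2 fold changes 0.82, 0.73 and 0.68). Without library A or without library B with asparagine, 2 of the 6 calls were left, that of Dsg2 among them, and for Mal2 the adjusted p was 0.206 and 0.201.

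Cdh1 had 349 and 414 CPM without asparagine against 262 and 277 CPM with it, a log2 fold change of 0.50 ± 0.12 (SE) that edgeR did not call (adjusted p = 0.106). The groups did not overlap, and DESeq2 called it higher (adjusted p = 0.0260). Its log2 fold change was 0.62 and 0.37 without library A or B without asparagine. Without library A or B with asparagine it was 0.46 and 0.54. Krt8 and Krt18, the keratins of simple epithelia, had log2 fold changes of -0.13 and -0.02 (adjusted p = 0.544 and 0.954).

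Factors that oppose the EMT factors, such as the grainyhead-like and splicing regulators, had 2 of 13 tested genes called, both higher, against 0.771% of all genes, and a median log2 fold change of 0.39. Grhl1 had 3.16 and 2.55 CPM without against 0.883 and 0.867 CPM with asparagine (3.24-fold, adjusted p = 0.0368), and Esrp1, an epithelial splicing regulator, had 15.4 and 19.0 against 6.39 and 6.97 CPM (2.58-fold, adjusted p = 0.0138). Both calls were lost without library A with asparagine (adjusted p = 0.274 for Grhl1 and 0.0577 for Esrp1) and without library B with asparagine (0.310 and 0.0505). Ovol2, which represses Zeb1, did not have enough reads to be tested.

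**Figure D4:**
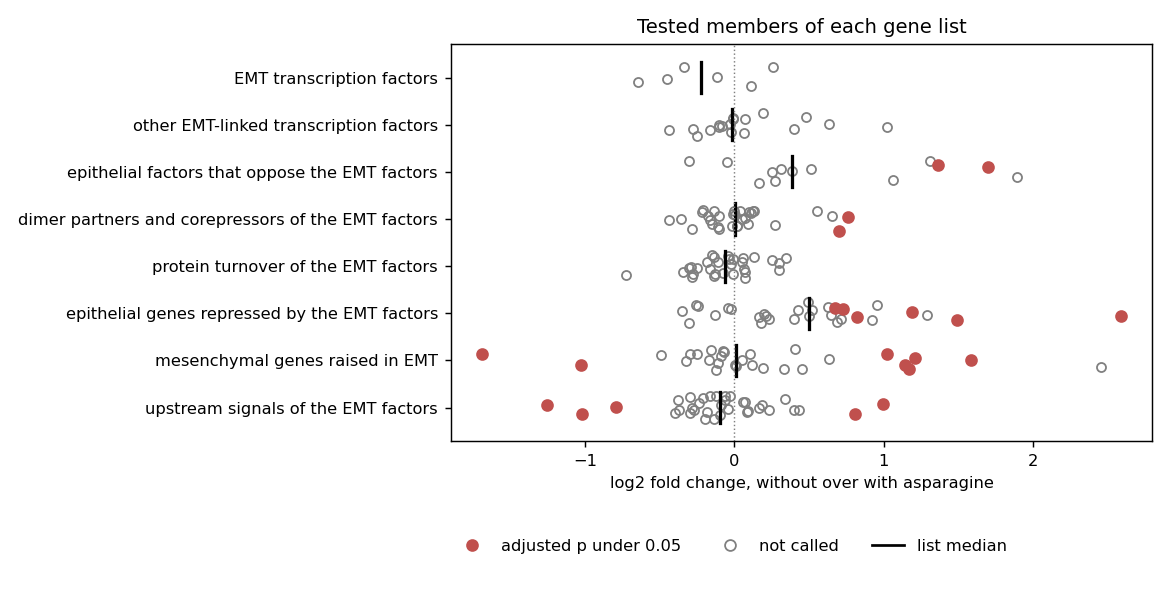
Log2 fold change, without over with asparagine (horizontal axis), of every tested gene of each list (points, spread vertically at random), with called genes filled and the list median as a black line. The 6 EMT factors lie within 1 log2 unit of 0 with none called. Above 0 lie 23 of 30 epithelial genes and 11 of 13 opposing factors, against 6598 of all 12843 genes tested.

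The E-box bound by Snail and ZEB factors reads CACCTG, or CAGGTG on the other strand. In promoter windows of 300 bases (250 before to 50 after the start site, RefSeq, GRCm38.p6) it was found on either strand in 19 of 24 epithelial genes of the list with a window, or 79.2%. Among all tested genes with a window, 20.8% held it, and among the listed mesenchymal genes 1 of 20. A match describes the letters only, and many genes entered the list because they are known targets. Of the EMT factors, 5 had a window, and 1 of them, Snai1, held a match.

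Of the 6 called epithelial genes only 3, Epcam, Dsp and Cgn, had a window. Their windows and that of Snai1 are shown, each 5′ to 3′ along its gene. Matches to CACCTG or CAGGTG are in capitals. Epcam (chr17:87635729-87636028, plus strand) has matches that start 187 and 19 bases before the start site, Dsp (chr13:38151044-38151343, plus strand) has 1 just after it, Cgn (chr3:94786433-94786732, minus strand) has none, and Snai1 (chr2:167537945-167538244, plus strand) has 1 at 126 bases before it.
Epcam: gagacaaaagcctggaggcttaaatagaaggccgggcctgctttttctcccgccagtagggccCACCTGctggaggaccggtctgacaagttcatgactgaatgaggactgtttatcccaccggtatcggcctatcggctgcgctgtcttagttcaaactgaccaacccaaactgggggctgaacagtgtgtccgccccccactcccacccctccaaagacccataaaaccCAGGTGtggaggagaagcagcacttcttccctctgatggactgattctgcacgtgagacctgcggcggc
Dsp: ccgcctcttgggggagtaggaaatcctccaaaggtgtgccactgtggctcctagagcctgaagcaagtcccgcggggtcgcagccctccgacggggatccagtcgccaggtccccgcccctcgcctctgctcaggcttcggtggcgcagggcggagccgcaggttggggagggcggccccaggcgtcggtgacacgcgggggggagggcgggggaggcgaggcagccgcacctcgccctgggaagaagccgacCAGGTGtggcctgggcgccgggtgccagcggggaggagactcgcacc
Cgn: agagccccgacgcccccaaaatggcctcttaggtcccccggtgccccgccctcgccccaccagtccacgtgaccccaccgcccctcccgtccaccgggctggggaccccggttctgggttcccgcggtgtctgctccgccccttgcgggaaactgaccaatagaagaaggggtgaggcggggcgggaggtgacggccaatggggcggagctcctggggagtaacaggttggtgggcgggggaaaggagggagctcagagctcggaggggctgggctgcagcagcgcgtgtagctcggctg
Snai1: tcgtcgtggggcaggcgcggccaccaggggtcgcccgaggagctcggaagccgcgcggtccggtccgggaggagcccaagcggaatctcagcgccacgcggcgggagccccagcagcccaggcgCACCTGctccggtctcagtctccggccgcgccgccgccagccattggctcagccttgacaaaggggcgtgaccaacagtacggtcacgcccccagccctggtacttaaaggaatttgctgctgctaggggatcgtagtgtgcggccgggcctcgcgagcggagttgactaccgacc
Epcam, with 2 matches, had 62.0 ± 4.44 CPM without against 38.8 ± 2.06 CPM with asparagine (SD, n = 2 each, log2 fold change 0.68, adjusted p = 0.0368). Cgn, with no match, had 34.5 ± 4.33 against 20.8 ± 0.535 CPM (SD, n = 2 each, log2 fold change 0.73, adjusted p = 0.0470). A called change was thus found with and without CACCTG or CAGGTG in the window. Sequences of the wider form CANNTG, where N is any base, numbered 3 in the Epcam window and 1 in that of Cgn.

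Mesenchymal genes moved in both directions. Of 29 tested, 5 were called higher and 2 lower without asparagine, against 0.771% and 1.07% of all genes, and the median log2 fold change was 0.01. Among the higher ones were Ctgf and Cyr61, which encode matricellular proteins, Mmp9, and, named after its values were seen, Thbs1 (log2 fold changes 1.58, 1.17, 1.21 and 1.02). Ctgf had 82.8 and 74.3 CPM without against 24.1 and 28.3 CPM with asparagine (adjusted p = 0.00511). The matrix metalloprotease gene Mmp3 fell to 30.2 and 27.8 CPM without asparagine, against 96.5 and 89.8 CPM with it (adjusted p = 0.00434), and the receptor gene Pdgfra to 18.1 and 22.8 against 42.8 and 40.7 CPM (adjusted p = 0.0221). Without library A or without library B with asparagine 2 calls were left, those of Ctgf and Mmp3, with an adjusted p of 0.114 and 0.0943 for Pdgfra, 0.136 and 0.127 for Mmp9 and 0.0965 and 0.0659 for Cyr61.

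The classic mesenchymal readouts were not called or not detected. Vim had 3222 and 2901 CPM without against 2972 and 3096 CPM with asparagine, with overlapping groups (log2 fold change 0.01, adjusted p = 0.962, or -0.067 without library A without asparagine and -0.018 without library A with it). Fn1, the fibronectin gene, had 1758 and 1968 against 1717 and 1713 CPM (log2 fold change 0.12, adjusted p = 0.603). Its log2 fold change was 0.20 and 0.03 without library A or B without asparagine. Without library A or B with asparagine it was 0.12 and 0.11. Cdh2, the gene of N-cadherin, had 0 reads in every library.

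Upstream of the EMT factors, genes of the TGF-beta, Notch and growth factor pathways held 2 called higher and 3 called lower of 35 tested, against 0.771% and 1.07% of all genes, with a median log2 fold change of -0.09. The Notch ligand gene Jag1 had 68.9 and 62.6 CPM without against 32.5 and 33.4 CPM with asparagine (adjusted p = 0.0103), and Tgfb2, a TGF-beta ligand gene, had 21.4 and 19.8 against 12.4 and 11.2 CPM (0.0368). Lower without asparagine were the co-receptor gene Tgfbr3 with 17.9 and 20.6 against 43.8 and 48.1 CPM (0.00799), the receptor gene Fgfr1 with 5.61 and 6.80 against 12.1 and 13.1 CPM (0.0354), and Smad3, which encodes a transducer of TGF-beta signals, with 56.7 and 63.4 against 109 and 98.8 CPM (0.0254). Without library A with asparagine the adjusted p was 0.120 for Jag1, 0.250 for Tgfb2, 0.144 for Fgfr1 and 0.334 for Smad3, and without library B with asparagine 0.117, 0.464, 0.272 and 0.170, so that Tgfbr3 alone of the list stayed called. In GENCODE M21 opposite-strand genes cover 3.99% of the exon bases of Dsg2, 2.01% of those of Esrp1 and 2.14% of those of Tgfb2. They also cover 1.66% of those of Fgfr1 and 2.50% of those of Fn1. For Pdgfra the opposite-strand genes Gm42802 and Gm42803 cover 4.55% and 1.66%. A gene on the same strand covers 4.54% of the exon bases of Tgfbr3.

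Several of the EMT factors are also expressed by fibroblasts, macrophages and endothelium, so markers of these cells were examined. The 9 mammary epithelial markers summed to 1041 and 1015 CPM without against 829 and 923 CPM with asparagine, with Krt5 at 0 reads in 3 libraries. Cdh1 alone gave 349 and 414 of these CPM without against 262 and 277 with asparagine. Of the 8 tested, 2 were called higher, against 0.771% of all genes. A fold change above 0 was found for 6 of them and below 0 for 2, against 48.6% of all genes below 0. Of 12 fibroblast markers 1, Pdgfra, was tested and made up nearly all of a sum of 18.7 and 23.6 CPM without against 43.9 and 41.6 CPM with asparagine, and the defining markers Thy1, Dcn and Col3a1 were at or near 0 in every library. The 11 macrophage markers in the table summed to 13.5 and 12.7 CPM without against 11.9 and 12.4 CPM with asparagine, mostly Cd68 and Cd14, with Ptprc under 0.5 CPM and Lyz2 at 0 reads in 3 libraries. The 10 endothelial markers summed to 4.58 and 2.68 CPM without against 3.87 and 4.44 CPM with asparagine. In bulk RNA, fewer cells with a transcript and less of it per cell cannot be told apart.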

How the data were processed

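RNA of 2 libraries without and 2 with asparagine was purified with a Qiagen kit and amplified with a NuGEN Ovation kit, per the labels' protocols. The authors deposited 1 table of raw read counts by gene symbol, made with Bowtie2 and HTSeq on mm10, per the submitters' processing notes. The labels give no versions, annotation, read length or strand setting. The 5 HTSeq summary rows, 60.1% to 70.0% of all reads, entered neither library sizes nor tests.

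Counts were filtered with filterByExpr (minimum count 10, minimum total 15), scaled by TMM and tested with edgeR 4.0.16 (quasi-likelihood, R 4.3.3, Benjamini-Hochberg over 12843 genes, threshold 0.05). Log2 fold changes are coded as without minus with asparagine, and SEs are the fold change over the square root of F. Intervals use that SE and the test's degrees of freedom. CPM use TMM-adjusted totals, and log2 CPM a prior count of 2. Alternatives used DESeq2 1.42.0 and limma 3.58.1, other scaling and filters, the letter as a block and each library left out. The fit was tested on simulated data. Counts carry no molecular identifiers, so limits from 0 reads cover counting error only.

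Exon lengths and overlaps came from GENCODE M21 (GRCm38, the mm10 assembly) and promoters from RefSeq (GRCm38.p6). The members and gene lists were chosen with earlier results of these data known. Besides the 8 factors, the rule named Asns, Cdh1, Vim, Cdh2, Fn1, up to 3 called genes a direction from each list or that with the smallest p, and the 2 most similar patterns for each tested factor. Other genes were chosen after their values were seen. A few called genes are not reported here.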

Additional observations from a re-analysis of the deposited data

How the results depend on the processing

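Among the single genes named, 263 alternative values kept direction and call, 25 lost a call, 23 gained one and 4 changed sign (Twist1, Zeb1 and Vim). With a library left out, the log2 fold change of Twist1 ranged from -0.24 to 0.0034, that of Zeb1 from -0.14 to 0.34 and that of Vim from -0.067 to 0.084. The number of EMT factors called was 0 in the main test. It was 1 with DESeq2, with no low-count filter and with the letter as a block (Foxc2 each time). The cause of these differences was not tested.

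Genes called over the whole table numbered 237, against 464 (193 higher, 271 lower) with DESeq2, 1334 with no filter, 816 (344 higher, 472 lower) with the letter block, and 48 to 5363 with a library left out. The letters do not pair the libraries by any label. The correlation of same-letter deviations from the group means was 0.12, and the 2 values of a group mirror each other. For the lists in the order EMT-linked factors, turnover genes and epithelial genes, the counts were 1, 1 and 10 with DESeq2, 2, 1 and 14 with no filter, and 1, 1 and 13 with the block. Dimer partners gave 4 with no filter and 1 when 5 CPM in 2 libraries were required, and opposing factors 1 under the same filter. With a library left out the counts ranged from 0 to 10 for EMT-linked factors, 0 to 8 for opposing factors, 0 to 15 for partners, 0 to 18 for turnover genes, 2 to 20 for epithelial genes, 2 to 18 for mesenchymal genes and 1 to 23 for upstream genes. Each of these fits has 1 library in a group, and its list counts pool both directions. Epithelial calls were not all higher when library A or B without asparagine was left out. The median log2 fold change of the epithelial list was then 0.52 and 0.49. Upstream calls were mostly lower when library B without asparagine was left out, with a median of -0.17. The ranges are not set against all genes called in the same fit, so they show no enrichment. Snai2 and Twist2, with 0 reads, could not be tested, and the 5 CPM filter removed Zeb1 and Prrx1.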
